A study of Homo sapiens with 6 samples.

Results

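The red cell membrane and blood group group examined here held 8 genes, GYPC, RHAG, RHCE, EPB42, ANK1, CA1, HEMGN and KEL, chosen by name. All 8 had a row in each of the 3 deposited tables, which list 16938, 16843 and 14956 rows, and they were 8 of the 16585 symbols with a value in all 3 cell lines. The name fits 6 of them. CA1 encodes a carbonic anhydrase of the red cell cytosol and HEMGN a nuclear protein, so both belong to red cell development rather than to its membrane. All samples were K562, a human leukemia cell line with erythroid features that, according to the study, lacks both C/EBPα isoforms. Using PiggyBac, a transposon that inserts its cargo into the genome, 3 stable lines had been made. CEBPA expresses full-length, wild-type C/EBPα when doxycycline is given, P30 expresses the shorter isoform C/EBPα-p30 in the same way, and CTR holds the vector without an insert. All 3 lines, CTR included, received 200 ng/ml doxycycline for 48 h, and RNA-seq was carried out on 2 samples per line. Each line is a separately made stable line and no sample without doxycycline was analysed here, so an effect of an isoform and a difference between lines cannot be told apart.

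The red cell membrane is held in shape by a spectrin network beneath the lipid bilayer. Ankyrin, encoded by ANK1, ties spectrin to the anion exchanger band 3, and protein 4.2, encoded by EPB42, stabilizes that link. Glycophorin C, from GYPC, forms a separate anchor through protein 4.1 and the adaptor MPP1, and carries the Gerbich antigens. RHAG and RHCE sit together in the Rh complex, where RHAG is a channel for ammonia needed to bring the Rh proteins to the surface and RHCE carries the C/c and E/e antigens. KEL is a zinc endopeptidase that carries the Kell antigens and is disulfide-linked to the membrane protein XK. These genes are switched on as erythroblasts mature, under the transcription factors GATA1, which binds GATA letters in DNA, and KLF1, which binds CACCC letters.

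Because all 8 genes were lower in the CEBPA line, the 250 bases before their start sites are shown for the 6 with a sequence in the RefSeq promoter set used here, each at a start shared with the main Gencode transcript. RefSeq gives them on GRCh38, and each was found at exactly 1 place in its GRCh37 chromosome, the build of the authors' alignment (hg19). The places are chr6:49604553-49604802 for RHAG, chr1:25747317-25747566 for RHCE, chr7:142659451-142659700 for KEL, chr15:43513217-43513466 for EPB42 and chr9:100700455-100700704 for HEMGN, all on the minus strand, and chr2:127413484-127413733 for GYPC on the plus strand. Each reads 5′ to 3′ on the strand of its gene and ends at the base before the start. Capitals mark, on either strand, the GATA letters, which are GATA with A or T before it and A or G after it, and the CACCC letters CCNCNCCC, which overlap each other in EPB42.
RHAG: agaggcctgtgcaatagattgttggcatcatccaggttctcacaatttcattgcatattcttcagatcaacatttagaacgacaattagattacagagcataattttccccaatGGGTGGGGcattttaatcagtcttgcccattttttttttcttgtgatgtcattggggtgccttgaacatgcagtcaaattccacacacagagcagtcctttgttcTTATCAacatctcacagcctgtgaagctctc
RHCE: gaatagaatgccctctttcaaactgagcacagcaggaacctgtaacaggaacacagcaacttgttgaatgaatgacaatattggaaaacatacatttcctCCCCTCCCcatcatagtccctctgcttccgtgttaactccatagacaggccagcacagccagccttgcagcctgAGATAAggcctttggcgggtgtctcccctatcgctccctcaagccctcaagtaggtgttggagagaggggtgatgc
GYPC: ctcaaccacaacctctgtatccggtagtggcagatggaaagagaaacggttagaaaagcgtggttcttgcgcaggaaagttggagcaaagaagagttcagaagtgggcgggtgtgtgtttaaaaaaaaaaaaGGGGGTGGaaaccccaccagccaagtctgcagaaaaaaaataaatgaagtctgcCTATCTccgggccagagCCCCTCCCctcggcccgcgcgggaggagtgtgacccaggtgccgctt
KEL: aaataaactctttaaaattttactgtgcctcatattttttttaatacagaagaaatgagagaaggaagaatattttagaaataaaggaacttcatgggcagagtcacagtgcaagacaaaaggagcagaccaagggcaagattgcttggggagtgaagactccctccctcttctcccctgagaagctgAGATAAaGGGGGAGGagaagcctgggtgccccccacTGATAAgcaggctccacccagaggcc
EPB42: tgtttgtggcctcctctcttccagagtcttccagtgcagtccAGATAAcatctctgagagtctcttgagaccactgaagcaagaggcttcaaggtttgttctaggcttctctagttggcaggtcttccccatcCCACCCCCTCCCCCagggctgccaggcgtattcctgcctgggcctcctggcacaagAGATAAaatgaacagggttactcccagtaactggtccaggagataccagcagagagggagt
HEMGN: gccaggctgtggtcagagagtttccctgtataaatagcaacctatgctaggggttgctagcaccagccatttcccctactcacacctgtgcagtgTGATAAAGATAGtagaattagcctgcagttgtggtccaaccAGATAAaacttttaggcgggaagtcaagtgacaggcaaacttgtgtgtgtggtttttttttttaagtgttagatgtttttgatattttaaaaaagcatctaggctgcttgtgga

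GATA letters were present before all 6 of these genes, and 22.3% of the 35116 promoters of the set held them in the same 250 bases. CACCC letters were present in 5 of the 6, all but HEMGN, beside 53.4% of all promoters. The C/EBP letters TTGCNNAA, again on both strands, were found in 0 of the 6 and in 9.05% of all promoters. Among only 6 promoters, a count of 0 is near that share and does not set these genes apart. In the 6 sequences shown, the GATA match nearest to the start was in KEL, 26 bases before it, followed by RHAG, whose single GATA match began 31 bases before the start and read on the opposite strand. In HEMGN 2 of the 3 GATA matches lay side by side. RHCE and HEMGN each have another RefSeq start. Over all 8 promoter entries of these 6 genes, 7 held GATA letters, and the exception was the other RHCE start, 110 bases upstream. A match of letters describes the sequence and is not a measured binding site.

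**Figure D1:**
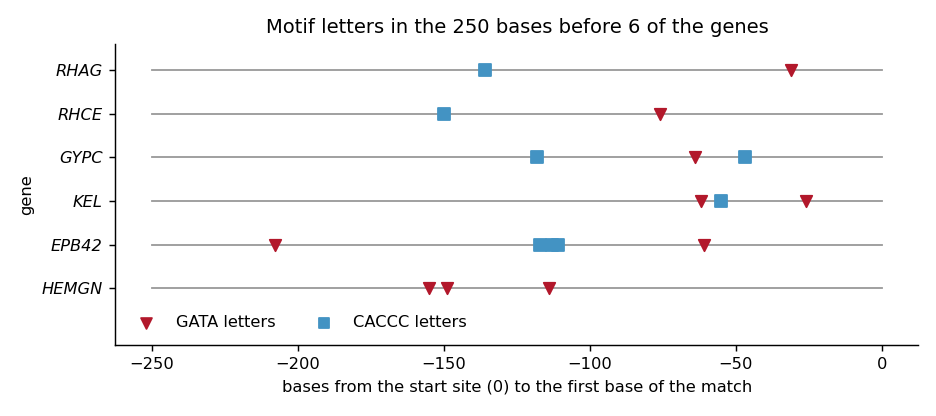
Positions of GATA letters (red triangles) and CACCC letters (blue squares) in the 250 bases before the start sites of 6 genes, with bases from the start on the x axis and 1 line per gene. Every gene has at least 1 GATA match, and HEMGN has 3 GATA matches and no CACCC match.

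The authors deposited FPKM, the fragments of a gene normalized for its length and for the mapped fragments, as 1 value per gene and line with both replicates pooled. Read totals and the spread between replicates are therefore unknown from the values, and the comparisons are descriptions without SD, interval or p-value. Changes are differences of log2(FPKM + 1), which makes those of weakly expressed genes too small, and a gene was compared if either line exceeded 1 FPKM. A difference of 1 on this scale is 2-fold. In pooled cells, fewer erythroid cells and less RNA per cell cannot be told apart. Of 9 erythroid markers 6 had a value, none at or below 1 FPKM in any line, with a sum of 1715 FPKM in CTR, 1225 FPKM in P30 and 682 FPKM in CEBPA. Of 9 granulocyte markers, 6 summed to 6.60 FPKM in CTR, against 37.9 in P30 and 8430 in CEBPA, with 0 of them listed at 0. S100A9 with 4623 FPKM and S100A8 with 3731 FPKM made up most of the CEBPA sum, while ITGAM had 2.59 FPKM in CTR, 14.3 FPKM in P30 and 2.43 FPKM in CEBPA. Their part in the results was not tested.

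All 8 genes had their highest level in CTR. RHAG was the most abundant, with 437 FPKM in CTR, then 217 in P30 and 127 in CEBPA, which placed it 177th, 387th and 688th among 13669 genes. Its partner RHCE had 88.2, 52.6 and 15.0 FPKM in the same order. GYPC stood at 213 FPKM in CTR compared with 162 in P30 and 55.6 in CEBPA. For these genes P30 lay between the other lines.

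KEL had 128 FPKM in CTR, 82.1 FPKM in P30 and 58.4 FPKM in CEBPA. Of the genes below the membrane, ANK1 had 54.2 FPKM in CTR, against 43.1 in P30 and 21.3 in CEBPA. EPB42 was the least abundant, with 5.43 FPKM in CTR, then 1.94 in P30 and 0.744 in CEBPA. The mRNA of protein 4.2 was thus 9.99 times less abundant than that of ankyrin in CTR, although both proteins meet at band 3. The ratio of ANK1 to EPB42 was 22.2 in P30 and 28.6 in CEBPA, where EPB42 was under 1 FPKM.

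CA1, which interconverts carbon dioxide and bicarbonate, had 18.0 FPKM in CTR compared with 12.5 in P30 and 4.92 in CEBPA. HEMGN alone had another order, with 59.0 FPKM in CTR, 20.2 FPKM in P30 and 23.0 FPKM in CEBPA. The order CTR, P30, CEBPA from high to low was thus seen in 7 of the 8 genes, and in 24.3% of the 13669 genes with a value over 1 FPKM in any line. Together the 8 genes accounted for 0.153% of the summed FPKM of CTR, 0.0890% of that of P30 and 0.0506% of that of CEBPA, and without RHAG for 0.0862%, 0.0563% and 0.0295%.

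**Figure D2:**
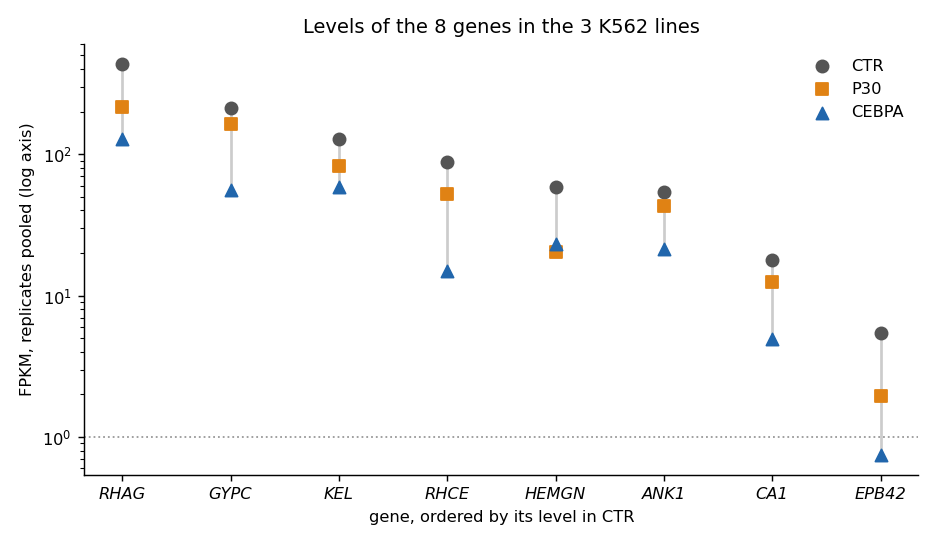
FPKM of the 8 genes on a log axis, 1 pooled value per line, with CTR as grey circles, P30 as orange squares and CEBPA as blue triangles, and a dotted line at 1 FPKM. CTR is highest for every gene, CEBPA is lowest for 7 of them, and for HEMGN the P30 value of 20.2 lies just under the CEBPA value of 23.0.

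The comparison of CEBPA with CTR set the line with wild-type C/EBPα against the line with the empty vector. All 8 were at least 2-fold lower in CEBPA, where 6.92% of the 13673 genes compared were. Their median change was -1.73, from -2.48 to -1.12, while the median over all genes was -0.01. In linear terms CEBPA kept between 13.7% and 45.7% of the CTR level. One of the 8, EPB42, passed the filter only through its CTR value.

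The Rh proteins and glycophorin C were among the genes with the largest differences. RHCE was 5.89-fold lower in CEBPA, a log2 change of -2.48, and 40 of the 13673 genes, itself included, were as low or lower. GYPC was 3.83-fold lower, with a change of -1.92. RHAG was 3.43-fold lower, with a change of -1.77. EPB42 had the widest linear ratio, 7.30, but a change of -1.88 on the log2(FPKM + 1) scale, because at its level the added 1 weighs heavily.

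CA1 was 3.65-fold lower in CEBPA. HEMGN and ANK1 were almost alike, at 2.57-fold and 2.55-fold lower. KEL differed least, 2.19-fold, with a change of -1.12 that 708 genes equalled or passed.

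The comparison of P30 with CTR did the same for the line with the short isoform. All 8 genes were lower in P30, where 44.9% of the 12395 genes compared were, and 3 were at least 2-fold lower, where 0.613% of all genes were. Their median change was -0.68, with a range from -1.50 to -0.33, and the median of all genes was 0.02. P30 kept from 34.2% to 79.4% of the CTR level.

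HEMGN had the lowest value, 2.92-fold under CTR with a change of -1.50, and 24 genes of the 12395 were as low or lower. EPB42 followed at 2.80-fold, a change of -1.13. RHAG, at 2.01-fold and a change of -1.01, was just past the 2-fold limit. Next came RHCE, short of 2-fold with a change of -0.73.

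KEL had a change of -0.63 and CA1 of -0.49. GYPC and ANK1 differed least, with -0.39 and -0.33. Of the 12395 genes, 733 were as low as GYPC or lower and 1008 as low as ANK1 or lower. The spread over all genes, a median absolute deviation scaled to an SD, was 0.20 in P30 vs CTR. In CEBPA vs CTR that spread was 0.73. Both comparisons use the same CTR libraries, so the sign they share is not independent.

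The order of the genes by change was not the same in the comparisons. GYPC had the second highest change in P30 vs CTR but the second lowest in CEBPA vs CTR. It was the third lowest there after scaling to a common sum, and also with a pseudocount of 0.1 or 0.01, where EPB42 was at -2.71 or -2.85. HEMGN was the lowest in P30 vs CTR and the third highest in CEBPA vs CTR. With 1 pooled value per line, this difference in order could not be tested.

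Between CEBPA and P30, 7 of the 8 genes were lower in CEBPA, as were most of all 13569 genes, whose median was -0.04. At least 2-fold lower were 3 of the 8, where 5.79% of the genes compared were. The 3 were RHCE at -1.75, GYPC at -1.53 and CA1 at -1.19. ANK1 had -0.98, RHAG -0.77, EPB42 -0.75 and KEL -0.48. Without the added 1, the FPKM of ANK1 were 2.02-fold and those of EPB42 2.61-fold lower in CEBPA than in P30, so that 5 of the 8 genes passed 2-fold on the linear scale. HEMGN was higher in CEBPA by 0.18. The median was -0.87, beside -0.04 for all genes, and EPB42, with 0.744 FPKM in CEBPA, passed the filter only through its P30 value of 1.94 FPKM.

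**Figure D3:**
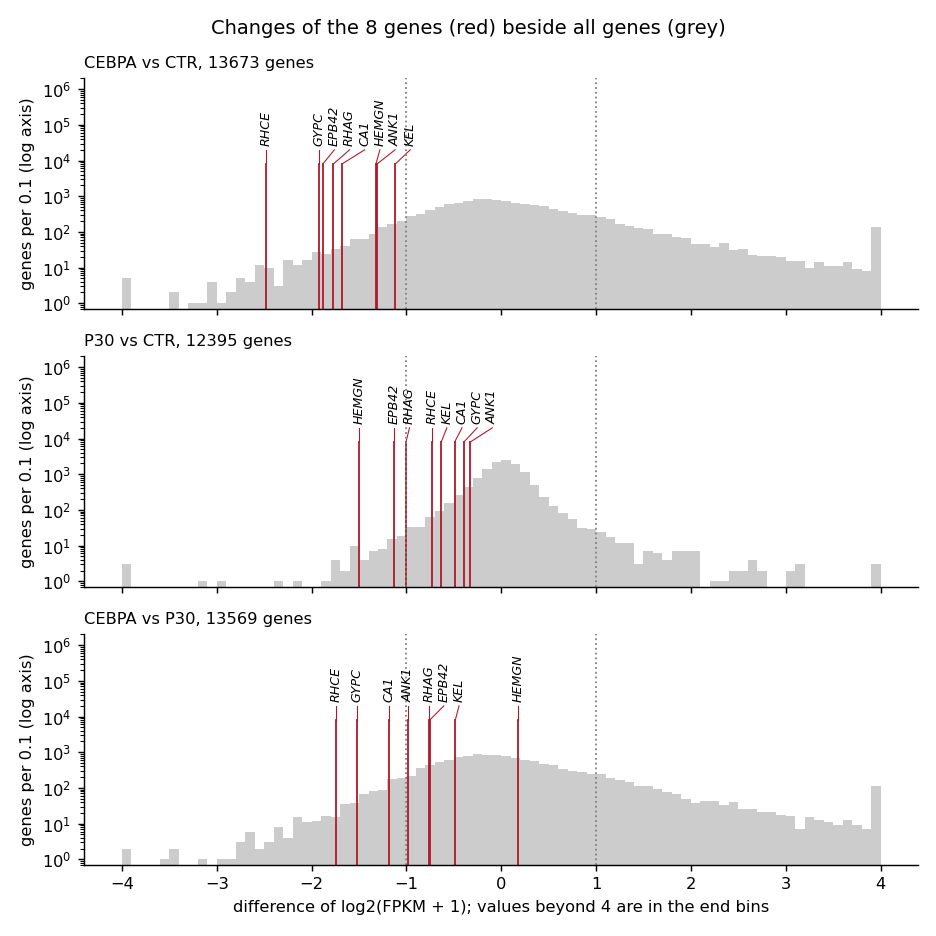
Differences of log2(FPKM + 1) of the 8 genes (red lines) over the histogram of all genes (grey, log axis of genes per 0.1) in the 3 comparisons, with dotted lines at a 2-fold difference. All 8 genes lie left of the 2-fold line in CEBPA vs CTR, 3 do in P30 vs CTR, and HEMGN alone lies right of 0 in CEBPA vs P30, at 0.18.

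Since FPKM are per length, the levels of binding partners can be set against each other. KEL and XK kept almost the same ratio, with 5.15 times as much KEL in CTR, 4.29 in P30 and 4.98 in CEBPA. ANK1 stood to its partner β-spectrin (SPTB) as 2.75 in CTR, 2.60 in P30 and 3.52 in CEBPA. RHAG to ICAM4, an adhesion molecule of the Rh complex, was 4.62 in CTR and 4.43 in CEBPA, but 2.69 in P30. Both genes of each of these pairs were lower in CEBPA than in CTR.

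The ratio of other partners in CEBPA was further from that in CTR. RHAG to RHCE was 4.96 in CTR, 4.13 in P30 and 8.50 in CEBPA. GYPC exceeded its anchor protein 4.1 (EPB41) 1.72 times in CTR and 1.37 times in P30, but was below it in CEBPA, at 0.806. Against MPP1 the ratio of GYPC was 1.33 in CTR, 0.910 in P30 and 0.731 in CEBPA. For CD47, another Rh complex partner that is also found on most other cells, levels were higher in CEBPA (60.0 FPKM) than in CTR (34.3), so that RHAG to CD47 went from 12.8 in CTR to 2.12 in CEBPA, with 4.64 in P30.

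The β-spectrin of red cells and its relative in other cells stood in opposite order in CTR and CEBPA. SPTB to SPTBN1, the β-spectrin of most other cells, was 1.20 in CTR, 0.828 in P30 and 0.147 in CEBPA. The red cell form was thus the more abundant in CTR and the general form in P30 and CEBPA. SPTAN1, a general α-spectrin, had 9.22 FPKM in CTR, against 14.2 in P30 and 66.3 in CEBPA.

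ANK1 remained above ANK3, an ankyrin of other tissues, in all 3 lines, but the ratio was 7.95 in CTR, 9.26 in P30 and 1.67 in CEBPA. ANK2 was not analysed here. CA1 was 9.31 times as abundant as CA2, the faster carbonic anhydrase that red cells also contain, in CTR and 5.20 times in P30, while CEBPA had 0.505 times as much CA1 as CA2. CA2 itself had 1.93 FPKM in CTR, then 2.40 in P30 and 9.73 in CEBPA.

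**Figure D4:**
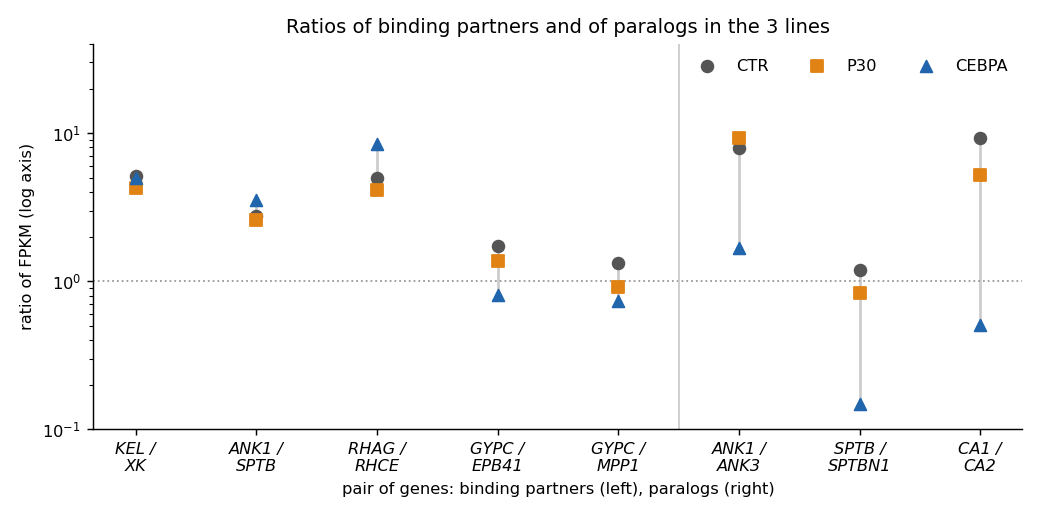
Ratios of FPKM on a log axis for 5 pairs of binding partners (left) and 3 pairs of paralogs (right) in CTR (grey circles), P30 (orange squares) and CEBPA (blue triangles), with a dotted line at equal levels. KEL to XK stays between 4.29 and 5.15, and SPTB to SPTBN1 and CA1 to CA2 are above 1 in CTR and below 1 in CEBPA.

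The wider set of membrane genes was described with 6 lists written for this work, and 2-fold differences were counted among listed genes over the filter. Of the red cell membrane skeleton, 12 of 13 genes had a value. In CEBPA vs CTR 4 of the 12 were at least 2-fold lower (6.92% of all genes were). At least 2-fold higher were 2 (14.0% of all genes were), and the median of the 12 was -0.81. The lower ones were SPTB, DMTN, which bundles actin, TMOD1, which caps it, and MPP1, with changes from -2.23 to -1.07. STOM, the integral membrane protein stomatin, was the highest, with 24.2 FPKM in CTR compared with 20.6 in P30 and 176 in CEBPA, and the adducin ADD3 also stood higher, by 1.04. EPB41, at -0.84, did not reach 2-fold.

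In P30 vs CTR 0 of these 12 genes were 2-fold lower or higher, and their median was -0.19. Of all 12395 genes compared, 76 (0.613%) were at least 2-fold lower and 126 at least 2-fold higher. The count of 0 among 12 is near that share. SPTB (-0.24), EPB41 (-0.06) and MPP1 (0.15) were near 0.

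Blood group carriers and Rh complex partners were lower in greater number. Of 28 listed genes 22 had a value and 20 passed the filter in CEBPA vs CTR. Of these 20, 13 were at least 2-fold lower (6.92% of all genes were). At least 2-fold higher were 3 (14.0% of all genes were), and the median of the 20 was -1.50. Among the 13 were GYPE, RHD, ICAM4, BCAM, ERMAP, XK, SEMA7A, AQP1, AQP3, SLC29A1, SMIM1 and BSG. BCAM, the Lutheran glycoprotein that binds laminin, differed most, with 18.6 FPKM in CTR, 14.4 FPKM in P30 and 1.39 FPKM in CEBPA. RHD, which carries the D antigen, had 55.2, 34.4 and 7.10 FPKM. XK was 2.12-fold lower in CEBPA, beside 2.19-fold for KEL. The 3 higher genes were CD44, CR1 and CD55, and CD55 had 52.1 FPKM in CTR, against 61.8 in P30 and 180 in CEBPA. CR1 and CD44 passed the filter only through CEBPA.

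In P30 vs CTR 1 of the 18 carriers over the filter was 2-fold lower (0.613% of all genes were). It was the water and glycerol channel AQP3, with 36.5 FPKM in CTR and 16.1 in P30, and the median of the list was -0.29. GATA1 had 185 FPKM in CTR compared with 193 in P30 and 53.1 in CEBPA, and KLF1 had 160, 115 and 42.3.

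The other lists were smaller. Their counts in CEBPA vs CTR stand beside 6.92% of all genes at least 2-fold lower and 14.0% at least 2-fold higher. Of 9 glycosyltransferases that build blood group sugars, 4 passed the filter, and FUT1, which makes the H antigen, and GBGT1 were at least 2-fold lower in CEBPA vs CTR. The median of these 4 was -0.93. Among 8 transport genes with a value, the glucose carrier SLC2A1, the potassium channel KCNN4 and the mechanosensitive channel PIEZO1 were 2-fold lower, with changes of -1.38, -2.61 and -1.46. The median of that list was only 0.04, with 4 genes higher and 4 lower. Among 5 further carbonic anhydrases over the filter, CA8 and CA11 were 2-fold lower and CA2 and CA5B 2-fold higher. Their median of 0.47 changed sign with the filter, being -0.21 without one. Of 11 paralogs used outside red cells, 2 were at least 2-fold lower, among them TGM2, an active transglutaminase related to protein 4.2, and SPTAN1, SPTBN1 and the neutral endopeptidase MME, a relative of KEL, were at least 2-fold higher. The median of the paralogs was -0.19, and 0.04 without a filter. MME, with a change of 1.57, passed through CEBPA only. In P30 vs CTR no gene of these 4 lists was 2-fold lower or higher. That is near the share over all 12395 genes compared, of which 76 were lower and 126 higher by 2-fold.

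**Figure D5:**
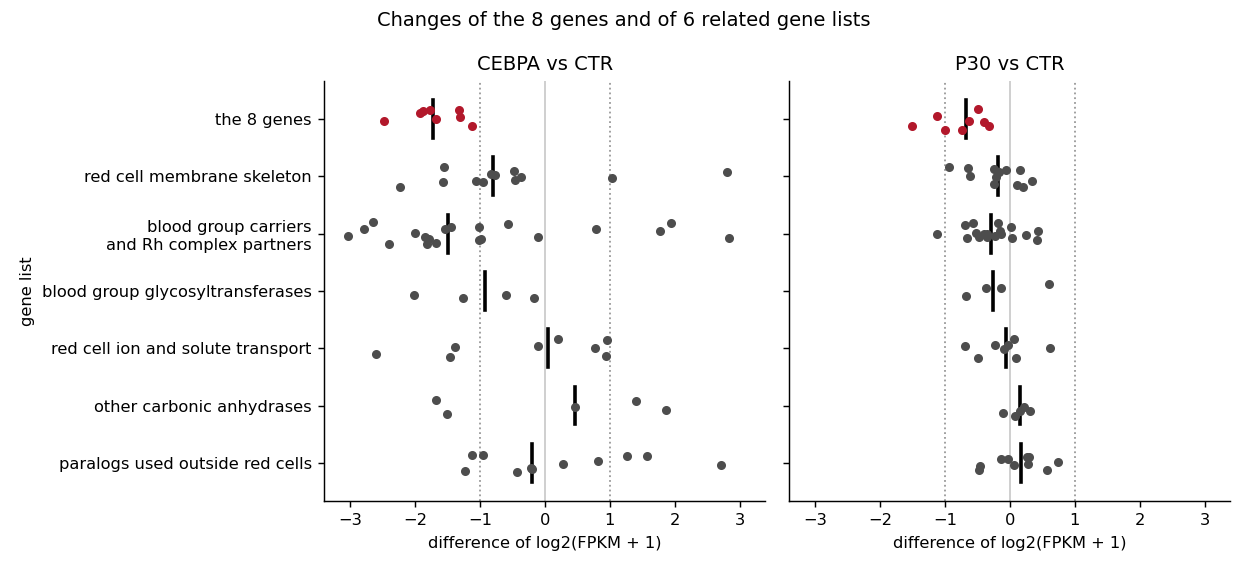
Differences of log2(FPKM + 1) of the 8 genes (red) and of the genes of 6 related lists over 1 FPKM in either line (grey), in CEBPA vs CTR (left) and P30 vs CTR (right), with a black bar at each median and dotted lines at a 2-fold difference. In CEBPA vs CTR the 8 genes have the lowest median, -1.73, and in P30 vs CTR AQP3 is the only gene of the 6 lists outside the 2-fold lines. Of all 12395 genes compared in P30 vs CTR, 76 were at least 2-fold lower and 126 at least 2-fold higher.

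Genes with a pattern like that of the 8 were sought among 7260 genes with over 10 FPKM in CTR, by the distance between pairs of changes in CEBPA vs CTR and P30 vs CTR. This likeness rests on 3 pooled values per gene. Nearest to the median pair (-1.73 and -0.68) were TMC6, SEMA7A, MRC2, MXRA8 and ADAMTSL4, at distances from 0.079 to 0.12. SEMA7A, which carries the John Milton Hagen antigens, had 13.4 FPKM in CTR, 7.98 FPKM in P30 and 3.10 FPKM in CEBPA. Within a distance of 0.25 there were 25 genes.

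The single genes differed in how common their pattern was. ANK1 had 152 genes within 0.25, with IFI6 the nearest, CA1 had 47 with UBAC1, KEL 43 with TRAK2 and GYPC 29 with ZNF467. RHAG had only 8, with S100A4 the nearest at 0.041, RHCE had 7 with ASIC4, and EPB42 had 5, the nearest being AQP3 at 0.030. That closeness holds on the log2(FPKM + 1) scale, whereas on the linear scale EPB42 in CEBPA was 7.30-fold and AQP3 3.89-fold below CTR. HEMGN had 0, and its nearest gene, FEZ1, was 0.32 away.

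The genes lie on several chromosomes of GRCh37, and CA1 and ANK1 share chromosome 8. RHCE (ENSG00000188672, 25688740 to 25756683, minus strand of chromosome 1) lies next to RHD on the plus strand, with 31803 bases between them. The pair are paralogs, and 9.76% of the 86-base windows of RHCE, 86 bases being the shorter of the read lengths used, also occurred in RHD. The FPKM of RHCE and RHD are uncertain to the extent that the authors' counting split such reads. For EPB42 (ENSG00000166947, chromosome 15, 43489425 to 43513216) 362 of 2259 windows occurred in a lncRNA on the same strand that comes from a newer annotation than theirs. The remaining 6 genes shared 0 windows with other genes. On the opposite strand, parts of exons were overlapped by TMEM50A in RHCE (113 bases), by CA3 in CA1 (68 bases) and by a lncRNA in ANK1 (285 bases), and the strand setting of the counting is not given in the sources used here.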

How the data were processed

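K562 RNA-seq from 3 lines was used, with 2 samples per line and groups taken from the sample titles. Per the paper's methods, TopHat placed stranded paired-end reads on hg19, after which the authors ran Cufflinks with Gencode and took FPKM from Cuffdiff. Reads came from separate runs on different Illumina instruments, and the pooled values do not show which sample belongs to which run. The authors deposited 3 tables, each with 1 FPKM per gene for 2 lines and the replicates pooled. The library normalization of Cuffdiff is not given in the sources used here. Depth per sample is unknown from FPKM, so no interval or test was computed. No column of values was left out. Some listed genes are not reported here by name.

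Differences of log2(FPKM + 1) were computed among genes over 1 FPKM in at least 1 line compared, and a 2-fold difference was counted. Rows were joined by symbol and by their shared values. The 8 genes and the lists were chosen with earlier results of these data known, and the genes named were the 8, their binding partners and paralogs, listed genes past 2-fold, markers and the most alike genes. Megakaryocyte markers (4 of 5 with a value) summed to 12.7 FPKM in CTR, 13.4 FPKM in P30 and 63.7 FPKM in CEBPA, of which PPBP made up 51.1 (GP9 was listed at 0 in CTR and PF4 in P30), and lymphocyte markers (3 of 5) to 13.2, 13.2 and 4.34. Positions are from Gencode on GRCh37, later than the authors' release. Promoters are from RefSeq (GRCh38.p14), with 250 bases before the start searched. Windows of 86 bases were compared exactly between transcripts. The computations were tested on simulated data. Alternatives were other pseudocounts (0.1 and 0.01), filters, scalings and row choices. Python 3.11.15, numpy 2.4.6, pandas 2.3.3 and matplotlib 3.10.9 were used.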

Additional observations from a re-analysis of the deposited data

How the results depend on the processing

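No paired analysis was possible because Cuffdiff had merged the samples of a line into 1 value, and for the same reason no replicate could be left out. A shift of over 0.20 on the log2 scale, the spread over all genes in P30 vs CTR, or of over 1.5 times in a count, was set as the limit. Of 431 recomputed values 409 stayed within these limits, and 22 passed them. Of the 431, 215 were changes of single genes among the 8, which the filters and row choices could not alter. Part of the 409 was therefore fixed in advance. The direction of each of the 8 genes was the same under the 9 alternatives in all 3 comparisons, except that a filter at 5 FPKM removed EPB42 from CEBPA vs P30. Only the scalings, centring on the median included, could have changed a direction. The number of the 8 at least 2-fold lower stayed at 8 for CEBPA and at 3 for P30 when each was set against CTR.

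With pseudocounts of 0.1 and 0.01, 5 of the 8 genes were 2-fold lower in CEBPA vs P30 and their median was -1.14 and -1.18. EPB42 was the only one of the 8 whose own change passed the limit, and it ranged from -2.85 to -1.81 in CEBPA vs CTR and from -1.48 to -1.13 in P30 vs CTR. The added constant matters in the same way for the glycosyltransferases in CEBPA vs CTR (-1.13 at 0.01) and the carbonic anhydrases (0.66 at 0.1 and 0.69 at 0.01). Without a filter, medians in CEBPA vs CTR were -1.24 for blood group carriers, -0.31 for glycosyltransferases, -0.21 for carbonic anhydrases and 0.044 for paralogs, and in CEBPA vs P30 -0.49 for glycosyltransferases and -0.17 for carbonic anhydrases. With a filter at 5 FPKM they were -1.27 for glycosyltransferases and -0.053 for carbonic anhydrases in CEBPA vs CTR, and -0.17 for carbonic anhydrases in CEBPA vs P30. These lists hold few genes, and the filters change which ones count. The signs for carbonic anhydrases and paralogs depend on the filter.

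Among all genes, those 2-fold lower in P30 vs CTR numbered 76 as reported, 184 with a pseudocount of 0.1 and 202 with 0.01. In CEBPA vs P30 they went from 785 to 1186 with 0.01, and those 2-fold higher in CEBPA vs CTR from 1921 to 1216 with a filter at 5 FPKM. Scaling to a common sum of FPKM moved the median of all genes by 0.10 in CEBPA vs CTR and by 0.12 in CEBPA vs P30, less than any change of the 8 genes in those comparisons.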
